A study of Mus musculus with 18 samples.

Results

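The genes described here encode the matrix metalloproteinases (Mmp), the ADAMTS proteases (Adamts), the ADAMTS-like proteins (Adamtsl), which lack the protease domain, and the tissue inhibitors of metalloproteinases (Timp). They were chosen by gene name and by the protein_coding class of the deposited table. The rule uses no measured value, but the families were picked with earlier results of these data known. The rule found 51 of 43346 genes, made up of 23 Mmp, 19 Adamts, 5 Adamtsl and 4 Timp genes. The cells were MC3T3-E1 subclone 4, a single subclone of a pre-osteoblast line from C57BL/6 mouse calvaria, kept for 3 days in osteogenic medium, which adds ascorbic acid and a phosphate source. RNA was sequenced from 3 samples given 2.5 µM EPZ6438, which blocks the histone methyltransferase EZH2, and from 3 samples given 0.25% DMSO, the vehicle. Whether EPZ6438 samples held DMSO as well is not stated in the labels. Chromatin immunoprecipitation in the same treatments mapped H3K27me3, the repressive mark that EZH2 writes, and H3K4me3, which marks promoters in use or held ready. The labels give 2 samples for each mark in each arm, with inputs. A single merged list of peaks for each mark in each arm was used, so peak results have no replicate error and their depth is unknown here.

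Matrix metalloproteinases are zinc proteases made as inactive proenzymes. Collagenases such as Mmp13 cut fibrillar collagen, gelatinases such as Mmp2 and Mmp9 cut denatured and basement membrane collagen, and membrane-type enzymes such as Mmp14 act at the cell surface and activate Mmp2. The ADAMTS family holds aggrecanases, which cut cartilage and vascular proteoglycans, procollagen N-proteinases, which trim new collagen, and members that act on fibrillin microfibrils. Timps bind metalloproteinases and block their active site. In bone, Mmp13 and Mmp14 serve the turnover of collagen matrix by osteoblast-lineage cells, and Mmp13 is a known target of the osteoblast regulator Runx2.

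The libraries held 20023137 to 24140050 reads in genes in EPZ6438 and 18807156 to 25365513 in DMSO. Of the 51 members, 31 passed the filter of at least 10 reads in at least 3 libraries and were tested, and the other 20 held 0 to 13 reads over all 6 libraries. Markers of the osteoblast lineage (Runx2, Sp7, Alpl, Col1a1, Col1a2, Ibsp and Bglap) summed to 5231 to 7052 RPKM (reads per kilobase of gene and per 1000000 reads) in EPZ6438 and 3180 to 5803 RPKM in DMSO. Most of each sum was Col1a1 and Col1a2, whose arms overlapped (limma adjusted p = 0.410 and 0.551). The other 5 of the 7 rose at an adjusted p under 0.05, as did 3.8% of all genes tested. Markers of osteoclasts and macrophages summed to 1.26 to 1.83 RPKM in EPZ6438 and 0.975 to 1.27 RPKM in DMSO, with Calcr, Ocstamp and Dcstamp at 0 reads. Neutrophil markers summed to 0 to 0.149 RPKM and 0.0155 to 0.242 RPKM in EPZ6438 and DMSO libraries, with Elane, Ltf and S100a9 at 0 reads. Endothelial and epithelial markers stayed below 0.1 RPKM in sum in every library. The cartilage marker list moved with the treatment through Col2a1, and summed to 77.6 to 107 RPKM in EPZ6438 and 10.3 to 18.4 RPKM in DMSO, while Acan was at 0 reads. The part of this shift in the protease values was not tested. In bulk RNA, fewer cells of a type and less RNA per cell cannot be told apart.

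Most matrix protease transcript in these cells came from few genes. Levels are compared between genes as RPKM, which is per length. Mmp2 and Mmp14 together made up 95.5% to 95.8% of the summed Mmp RPKM in each library, and Timp2 and Timp1 made up 89.7% to 93.7% of the summed Timp RPKM. Summed Mmp levels were 661 ± 5.28 RPKM in EPZ6438 and 753 ± 48.7 RPKM in DMSO (SD, n = 3 each). Summed Timp levels were 399 ± 24.6 RPKM in EPZ6438 and 494 ± 26.2 RPKM in DMSO. The ratio of the summed Timp level to the summed Mmp level was 0.636, 0.563 and 0.612 in EPZ6438 and 0.745, 0.641 and 0.592 in DMSO, so the arms overlapped in this balance of inhibitor to enzyme transcript. Summed Adamts levels were 100.1 ± 2.35 RPKM in EPZ6438 and 111.8 ± 5.24 RPKM in DMSO, spread over many genes. Summed Adamtsl levels were 31.4 ± 1.93 RPKM in EPZ6438 and 44.8 ± 4.36 RPKM in DMSO.

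**Figure D1:**
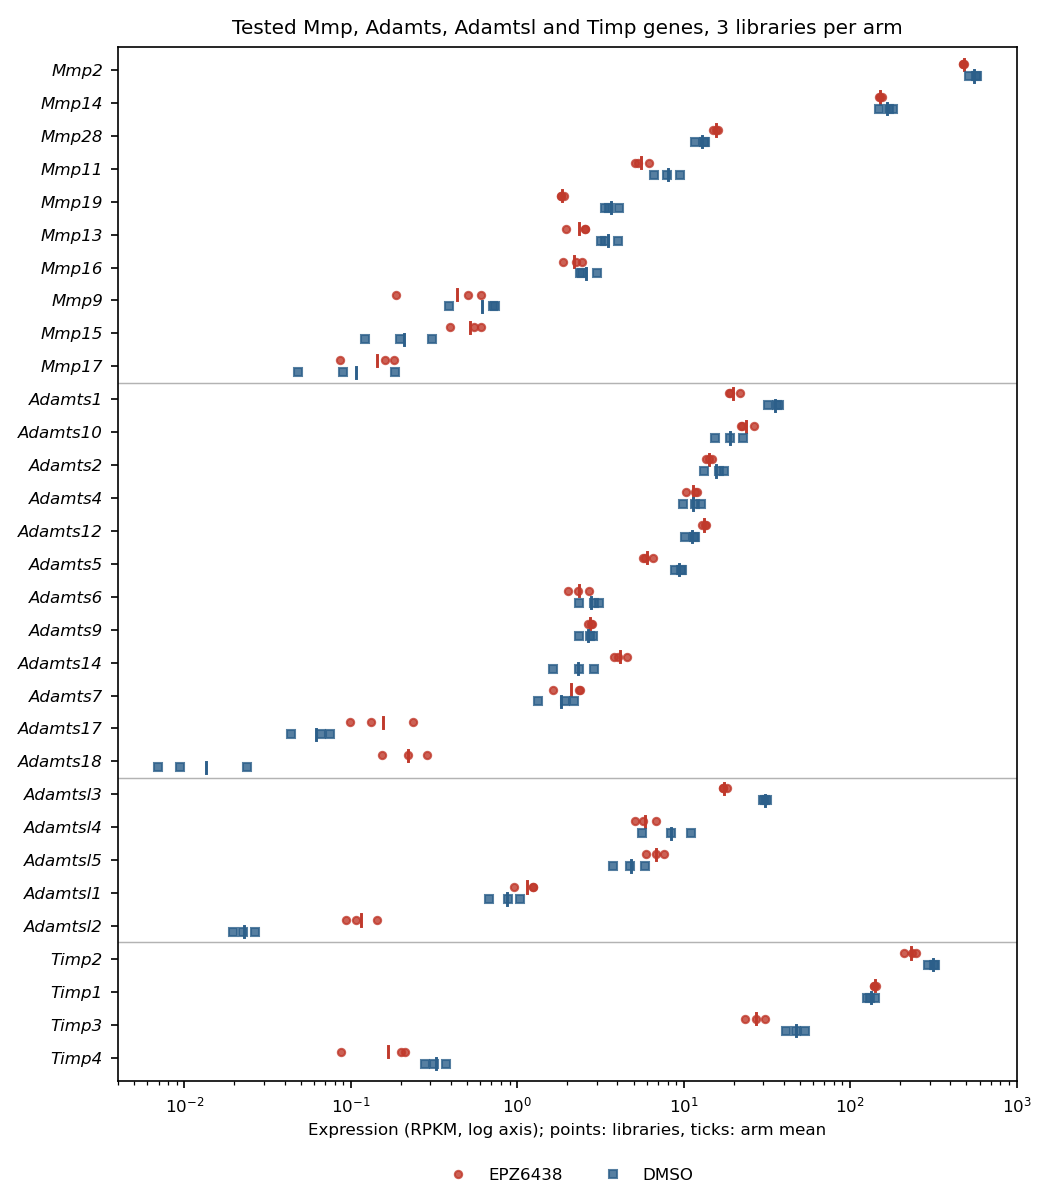
Expression of the 31 tested genes in RPKM on a log axis, with 1 point per library (EPZ6438 circles above DMSO squares) and a tick at each arm's mean. Mmp2, Timp2, Mmp14 and Timp1 sit above 100 RPKM in every library, while Adamts18 and Adamtsl2 sit below 1 RPKM.

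More members fell than rose with EPZ6438, and those that fell include an abundant aggrecanase gene and 2 of the 4 inhibitor genes. Of the 31 tested members, 7 passed limma's test at an adjusted p under 0.05, 1 higher and 6 lower in EPZ6438, which is 22.6% of them against 7.04% of all 14213 genes tested (3.8% higher and 3.24% lower). Adamts1, Adamts5, Adamtsl3, Mmp19, Timp2 and Timp3 fell, and Adamts18 rose. The 7 calls became 4 without DMSO replicate 2, and 4, 3 and 4 when EPZ6438 replicate 1, 2 or 3 was left out. In limma's test against a 1.5-fold change they became 0, where 4 members had an unadjusted p under 0.05. The median log2 change, EPZ6438 minus DMSO of log2(RPKM + 0.1), was -0.13 over the tested members and -0.029 over all genes tested. The 3 values of one arm lay wholly apart from those of the other in 18 members, 8 of them higher and 10 lower in EPZ6438. Of all genes tested, 26.7% had arms apart in this way (12% higher and 14.7% lower). Adamts18 and Adamtsl2 passed the filter through their EPZ6438 libraries alone, and Timp4 did so through its DMSO libraries. In mm10 the genes that passed lie at chr16:85793827-85803113 (Adamts1), chr16:85858170-85901125 (Adamts5), chr8:113697126-113848615 (Adamts18), chr7:82335694-82614450 (Adamtsl3), chr10:128790953-128800824 (Mmp19), chr11:118301069-118355740 (Timp2) and chr10:86300372-86349506 (Timp3). The labels do not say that replicates were separate cultures, and the p-values therefore reflect only the variation among these libraries, part or all of which may be technical.

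**Figure D2:**
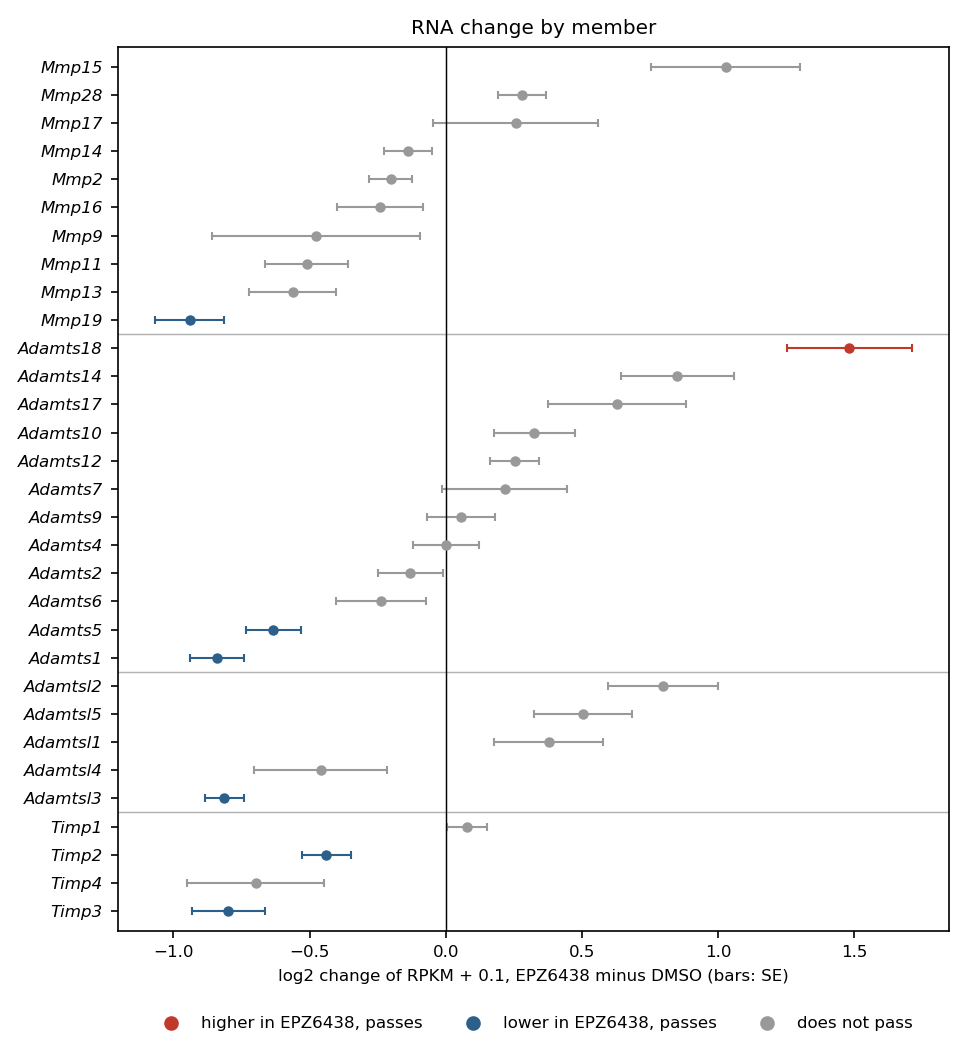
The log2 change of RPKM + 0.1, EPZ6438 minus DMSO, for the 31 tested genes by family, with bars of 1 SE. The 6 genes that pass below 0 lie between -0.94 (Mmp19) and -0.44 (Timp2), and Adamts18 is the 1 gene that passes above 0.

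A cluster of secreted Mmp genes lies on chromosome 9, and 9 of its 10 genes had 0 or 1 reads summed over each arm. Between the start of Mmp13 and the end of Mmp7 (mm10 chr9:7272514-7699585) stand 10 Mmp genes, which are Mmp13 (collagenase), Mmp12 (macrophage elastase), Mmp1a and Mmp1b (relatives of interstitial collagenase), Mmp3 and Mmp10 (stromelysins), Mmp8 (neutrophil collagenase), Mmp27, Mmp20 (enamelysin of the tooth) and Mmp7 (matrilysin of epithelia). Of these, 7 had 0 reads in every library, Mmp3 had 1 read in EPZ6438 and 1 in DMSO, and Mmp8 had 1 read in EPZ6438 and 0 in DMSO. A count of 0 allows up to 3 reads, which is 0.124 to 0.150 counts per 1000000 reads in the EPZ6438 libraries and 0.118 to 0.160 in the DMSO libraries.

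Mmp13 alone of the cluster was expressed well enough to test. It had 2.56, 1.97 and 2.56 RPKM in EPZ6438, against 3.36, 4.02 and 3.20 RPKM in DMSO. All 3 EPZ6438 values were below all 3 DMSO values, but the difference did not pass (log2 change -0.56, SE 0.16, limma adjusted p = 0.0861). Without any 1 library the adjusted p of Mmp13 lay between 0.0792 and 0.299. Its known activator Runx2 rose, at 45.8 RPKM in EPZ6438 and 30.4 RPKM in DMSO (log2 change 0.59, SE 0.08, adjusted p = 0.00813).

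The promoters of the cluster are shown because they share letters that the other families mostly lack. RefSeq promoter entries of GRCm38.p6, the build called mm10, were matched for 36 of the 51 members, and positions are counted back from the RefSeq start site. The lines give the last 80 bases before each start, 5′ to 3′ on the strand of the gene, with TATAAA (the TATA box) and TGANTCA (the AP-1 motif) in capitals.
Mmp13: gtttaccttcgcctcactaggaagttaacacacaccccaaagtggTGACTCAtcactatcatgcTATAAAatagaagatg
Mmp12: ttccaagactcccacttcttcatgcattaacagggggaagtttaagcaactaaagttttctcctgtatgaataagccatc
Mmp1b: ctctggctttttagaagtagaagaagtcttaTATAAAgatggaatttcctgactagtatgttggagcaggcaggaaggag
Mmp3: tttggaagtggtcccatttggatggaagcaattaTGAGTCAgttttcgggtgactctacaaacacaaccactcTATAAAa
Mmp1a: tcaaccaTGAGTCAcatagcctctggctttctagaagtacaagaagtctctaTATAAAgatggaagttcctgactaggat
Mmp10: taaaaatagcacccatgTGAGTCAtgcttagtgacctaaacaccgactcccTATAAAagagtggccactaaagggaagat
Mmp8: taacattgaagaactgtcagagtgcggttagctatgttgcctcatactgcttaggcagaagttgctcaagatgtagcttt
Mmp27: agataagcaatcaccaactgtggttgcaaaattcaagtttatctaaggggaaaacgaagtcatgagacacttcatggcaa
Mmp20: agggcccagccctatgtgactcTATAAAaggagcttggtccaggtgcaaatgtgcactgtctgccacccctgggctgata
Mmp7: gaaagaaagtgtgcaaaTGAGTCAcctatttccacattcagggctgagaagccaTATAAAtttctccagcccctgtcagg

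Within these 80 bases, TATAAA stood in 7 of the 10 cluster promoters and in 5.27% of 15851 promoters of protein_coding genes, and TGANTCA stood in 5 of the 10 and in 1.74%. Both strands were searched, and the motifs do not overlap each other. Mmp13, Mmp3, Mmp1a, Mmp10 and Mmp7 held both motifs, with the AP-1 letters upstream of the TATA box in each. In Mmp13 the AP-1 letters spanned -35 to -29 and the TATA box -16 to -11. Over 250 bases before the start, TGANTCA was found in 7 of the 10 cluster promoters, in 0 of the other 26 members with an entry, and in 6.2% of all promoters. Over the same 250 bases the cluster promoters held 0 to 4 CpG dinucleotides, and the other 26 members held 1 to 39 with a median of 15. The same pair of motifs thus stood at Mmp13, which was tested, and at Mmp3, Mmp1a, Mmp10 and Mmp7, which had 0 to 2 reads over the 6 libraries. A match describes letters and not occupancy.

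H3K27me3 peaks in the cluster were about as dense as in the rest of the genome in DMSO. The cluster held 1 H3K27me3 peak in the EPZ6438 list and 22 in the DMSO list, which is 2.34 and 51.5 peaks per megabase against 7.63 and 52.7 over the whole genome. H3K4me3 peaks numbered 0 in the EPZ6438 list and 3 in the DMSO list. The largest H3K27me3 cover at a gene of the cluster was at Mmp27, with 0 bases in EPZ6438 and 2225 bases within 2.5 kb of a gene end in DMSO. Mmp7 had a peak in both lists just beyond the end of the cluster, so these peaks are not among those counted above. They had 443 bases in EPZ6438 and 498 bases in DMSO within 2.5 kb of the gene end. The whole peaks were 1086 bp wide in EPZ6438 and 602 bp wide in DMSO. Mmp13 had no H3K4me3 peak in either list and 1 H3K27me3 peak of 211 bases beyond its 3′ end in DMSO.

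Outside the cluster, the gelatinase gene Mmp2 and the membrane-type gene Mmp14 were the most abundant Mmp genes of these cells. Mmp2, a gelatinase, had 485, 479.9 and 476 RPKM in EPZ6438, against 518, 567 and 575 RPKM in DMSO. The EPZ6438 values of Mmp2 all lay below the DMSO values, and the difference did not pass (log2 change -0.20, SE 0.08, adjusted p = 0.203). Mmp14, the surface activator of Mmp2, had 151, 155 and 149.6 RPKM in EPZ6438, against 149.8, 172 and 181 RPKM in DMSO, where the lowest value fell inside the EPZ6438 range (adjusted p = 0.442). Mmp28, epilysin, had 15.6, 15.1 and 16.1 RPKM in EPZ6438, against 11.8, 13.3 and 13.4 RPKM in DMSO. Each EPZ6438 value of Mmp28 was above each DMSO value, and it did not pass either (log2 change 0.28, SE 0.09, adjusted p = 0.116).

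Mmp19, a secreted metalloproteinase of many tissues, was the 1 Mmp gene that passed. It had 1.92, 1.82 and 1.84 RPKM in EPZ6438, against 4.08, 3.36 and 3.58 RPKM in DMSO. The arms were well apart, and Mmp19 fell by 0.94 on the log2 scale (SE 0.13, limma adjusted p = 0.00640), a call kept without any 1 library. Mmp19 overlaps Tmem198b, which was lower as well (log2 change -0.55, adjusted p = 0.0172), and whether counting used strand is not known here, so reads of the 2 genes may be shared.

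Other Mmp genes were low or did not pass. Mmp11, stromelysin-3, averaged 5.57 ± 0.583 RPKM in EPZ6438 and 8.03 ± 1.41 RPKM in DMSO (adjusted p = 0.101), with the arms apart, and passed without DMSO replicate 1 (0.0434). Mmp15, a membrane-type enzyme, averaged 0.518 ± 0.112 RPKM in EPZ6438 and 0.209 ± 0.0936 RPKM in DMSO, also apart (log2 change 1.03, SE 0.27, adjusted p = 0.0741), and passed without DMSO replicate 3 (0.0383). Mmp9, the gelatinase of osteoclasts and neutrophils, had 0.188, 0.609 and 0.508 RPKM in EPZ6438 and 0.391, 0.737 and 0.713 RPKM in DMSO, and the arms overlapped (adjusted p = 0.542). Mmp16 and Mmp17, a pair of membrane-type enzymes, overlapped between arms too. Mmp21, Mmp23, Mmp24 and Mmp25 had 1 to 13 reads over the 6 libraries and were not tested.

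The inhibitor genes split. Timp3, the Timp that binds to matrix and also inhibits aggrecanases, fell in EPZ6438, and so did Timp2, the inhibitor that also takes part in Mmp2 activation at the cell surface. Timp1 did not pass. Timp3 had 30.9, 23.5 and 27.4 RPKM in EPZ6438, against 53.2, 47.5 and 41.4 RPKM in DMSO. The highest EPZ6438 value was below the lowest DMSO value, and the log2 change was -0.80 (SE 0.13, limma adjusted p = 0.0152). Timp2 had 248, 212 and 235 RPKM in EPZ6438, against 325, 319.8 and 295 RPKM in DMSO. These arms were also apart (log2 change -0.44, SE 0.09, adjusted p = 0.0307). Timp1, the inducible soluble inhibitor, had 144, 138 and 139 RPKM in EPZ6438, against 141, 127 and 131 RPKM in DMSO, and the arms overlapped (log2 change 0.08, SE 0.07, adjusted p = 0.604). Timp4 had 0.201, 0.0877 and 0.212 RPKM in EPZ6438, against 0.375, 0.318 and 0.278 RPKM in DMSO, with each arm near the filter and the arms apart (adjusted p = 0.169). Timp1, Timp2 and Timp3 overlap Syn1, BC100451 and Syn3, which averaged 2.83 RPKM or less in either arm. The calls of both inhibitors were lost in several fits with 1 library left out, though the direction held. The log2 change stayed between -0.89 and -0.69 for Timp3 and between -0.49 and -0.38 for Timp2. In the fits that lost them, calls over all genes fell as well, from 1001 to between 309 and 381. Timp3 no longer passed when DMSO replicate 2 or either of EPZ6438 replicates 2 and 3 was left out (adjusted p up to 0.0763). Timp2 no longer passed when DMSO replicate 2 or any 1 EPZ6438 library was left out (adjusted p up to 0.148), or with no filter on low reads (0.0846).

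The aggrecanase genes were led by Adamts1, which fell in EPZ6438. Adamts1, an aggrecanase and versicanase, had 21.7, 18.6 and 19.0 RPKM in EPZ6438, against 37.7, 36.6 and 32.0 RPKM in DMSO. All EPZ6438 values lay far below the lowest DMSO value (log2 change -0.84, SE 0.10, limma adjusted p = 0.00384), and the call held without any 1 library. Adamts5, the aggrecanase of mouse cartilage, which lies next to Adamts1 on chromosome 16, had 5.90, 5.68 and 6.57 RPKM in EPZ6438, against 9.60, 9.79 and 8.88 RPKM in DMSO. Its arms were apart as well (log2 change -0.63, SE 0.10, adjusted p = 0.0128), but it no longer passed when DMSO replicate 2 or either of EPZ6438 replicates 1 and 2 was left out (adjusted p up to 0.0827). Adamts4, the other classical aggrecanase, averaged 11.4 ± 0.906 RPKM in EPZ6438 and 11.4 ± 1.45 RPKM in DMSO (log2 change -0.00, SE 0.12, adjusted p = 0.999), but its reads may be shared with another gene. Adamts9, also an aggrecanase and versicanase, averaged 2.75 ± 0.0794 RPKM in EPZ6438 and 2.65 ± 0.258 RPKM in DMSO (adjusted p = 0.848).

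Adamts18, an orphan ADAMTS protease, was the 1 member that rose, at a very low level. It had 0.286, 0.154 and 0.221 RPKM in EPZ6438, against 0.00942, 0.0239 and 0.00699 RPKM in DMSO. In reads, the EPZ6438 libraries held 80 and the DMSO libraries 5, a depth-corrected ratio of 16.3 with an exact 95% counting interval from 6.70 to 51.5. This interval pools reads over libraries and leaves out variation between them. The fitted log2 change was 1.48 (SE 0.23, limma adjusted p = 0.0114), which the added 0.1 RPKM makes smaller than the read ratio. Adamts18 passed the filter through its EPZ6438 libraries alone, so it could enter only as higher and could not be tested without one of them. The call held without any 1 DMSO library. Adamts17, a fibrillin-related member, was low too, at 0.0987, 0.132 and 0.235 RPKM in EPZ6438 and 0.0663, 0.0748 and 0.0437 RPKM in DMSO. The arms of Adamts17 were apart without passing (log2 change 0.63, SE 0.25, adjusted p = 0.217).

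The procollagen N-proteinases did not move as one. Adamts2, the main enzyme that trims type I procollagen, had 14.3, 14.8 and 13.6 RPKM in EPZ6438, against 13.2, 16.3 and 17.5 RPKM in DMSO, and the arms overlapped (adjusted p = 0.596). Adamts14, a close relative with the same activity, had 3.83, 4.57 and 4.03 RPKM in EPZ6438, against 1.65, 2.36 and 2.90 RPKM in DMSO. Every EPZ6438 value of Adamts14 was above every DMSO value, just short of the threshold (log2 change 0.85, SE 0.21, adjusted p = 0.0571), and it passed with a stricter filter (0.0498), with voom on recovered reads (0.0269) and without DMSO replicate 3 (0.0239). Adamts3, the third of this group, had 0 reads in every library.

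Of the remaining Adamts genes, Adamts10, which binds fibrillin, had 22.3, 26.4 and 22.3 RPKM in EPZ6438, against 15.4, 19.0 and 22.6 RPKM in DMSO, and the arms overlapped (adjusted p = 0.277). Adamts12, which cuts COMP, averaged 13.3 ± 0.342 RPKM in EPZ6438 and 11.2 ± 0.853 RPKM in DMSO, apart without passing (adjusted p = 0.165). Adamts6 and Adamts7 averaged 1.82 to 2.78 RPKM in either arm and overlapped, and Adamts7 shares its place with Tbc1d2b. Adamts8, Adamts13 (the von Willebrand factor protease), Adamts15, Adamts16, Adamts19 and Adamts20 had 0 to 6 reads over the 6 libraries and were not tested.

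Among the protease-like matrix proteins, Adamtsl3 fell in EPZ6438 with the smallest SE of the 31 tested members. Adamtsl3, also called punctin-2, had 17.1, 17.1 and 18.2 RPKM in EPZ6438, against 30.0, 31.6 and 30.8 RPKM in DMSO. The arms were far apart (log2 change -0.81, SE 0.07, limma adjusted p = 0.00146), and the call held without any 1 library. Adamtsl4, which binds fibrillin-1, had 5.09, 6.82 and 5.69 RPKM in EPZ6438, against 5.62, 8.35 and 11.1 RPKM in DMSO, and the arms overlapped (adjusted p = 0.345). Adamtsl5 had 5.95, 7.65 and 6.78 RPKM in EPZ6438, against 3.77, 4.78 and 5.89 RPKM in DMSO, just apart (adjusted p = 0.167). Adamtsl2, which binds LTBP1 and fibrillin, held 59 reads in EPZ6438 and 12 in DMSO, a ratio of 5.01 with an exact 95% counting interval from 2.66 to 10.2. Reads were pooled over libraries for this interval, so it leaves out variation between them. Adamtsl2 passed the filter through its EPZ6438 libraries alone, so it could enter only as higher. It did not pass (log2 change 0.80, SE 0.20, adjusted p = 0.0631), except with 0.01 RPKM added in place of 0.1 (0.0369) and with voom (0.0120).

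Promoters of genes that changed are shown for comparison with those of the cluster, because their H3K4me3 and H3K27me3 peaks are described next. The lines give 250 bases before the RefSeq start site in GRCm38.p6, 5′ to 3′ on the gene's strand, with TATAAA and GGGCGG (the GC box, or CCGCCC on the other strand) in capitals. They lie at chr16:85803114-85803363 (Adamts1, minus strand), chr8:113848840-113849089 (Adamts18, minus strand) and chr7:82335444-82335693 (Adamtsl3, plus strand).
Adamts1: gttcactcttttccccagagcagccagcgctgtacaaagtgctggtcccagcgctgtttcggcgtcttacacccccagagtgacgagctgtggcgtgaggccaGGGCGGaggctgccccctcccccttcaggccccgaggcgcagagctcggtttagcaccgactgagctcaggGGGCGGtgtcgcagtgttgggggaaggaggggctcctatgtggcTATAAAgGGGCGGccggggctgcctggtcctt
Adamts18: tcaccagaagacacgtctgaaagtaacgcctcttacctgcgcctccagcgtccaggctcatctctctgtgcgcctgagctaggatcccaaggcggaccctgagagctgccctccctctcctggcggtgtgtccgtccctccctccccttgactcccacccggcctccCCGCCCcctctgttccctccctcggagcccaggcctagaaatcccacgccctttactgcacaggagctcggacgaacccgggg
Adamtsl3: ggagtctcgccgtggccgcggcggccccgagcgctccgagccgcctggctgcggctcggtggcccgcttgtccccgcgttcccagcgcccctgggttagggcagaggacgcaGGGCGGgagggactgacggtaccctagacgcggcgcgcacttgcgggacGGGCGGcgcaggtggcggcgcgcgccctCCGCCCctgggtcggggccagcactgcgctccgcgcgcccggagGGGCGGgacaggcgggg

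Adamts1 held a TATA box at -32 to -27 between GC boxes and 15 CpG dinucleotides, Adamts18 held 1 GC box and 15 CpG, and Adamtsl3 held 4 GC boxes and 39 CpG. None of the 3 held TGANTCA in these 250 bases. Over the 36 members with an entry, 20 held GGGCGG, where 44.5% of all promoters do.

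CpG content went with H3K4me3 among the members, as it does across the genome, but the chromosome 9 cluster weighed heavily in this. The 16 members with a promoter entry and an H3K4me3 peak in either list held 1 to 39 CpG with a median of 17.5, and the 20 with none held 0 to 35 with a median of 2. Over all protein_coding genes the medians were 17 and 4. All 10 promoters of the chromosome 9 cluster, with 0 to 4 CpG, were among the 20 members without a peak. Outside the cluster, members without a peak held 1 to 35 CpG. Of these, 6 held 10 or more CpG, as did 14 of the 16 members with a peak. A peak at either gene end counted, and those of Mmp11 were centred 10576 to 11686 bases from its start, nearer to Smarcb1.

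**Figure D3:**
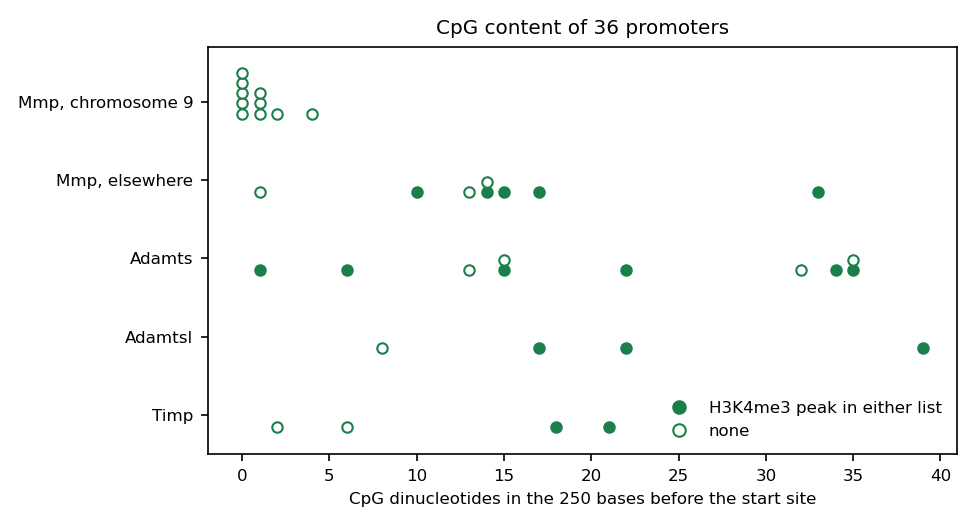
CpG dinucleotides in the 250 bases before the start site of 36 genes, by family, with filled circles for an H3K4me3 peak within 2.5 kb of a gene end in either list. The 10 promoters of the chromosome 9 cluster hold 0 to 4 CpG, and none has an H3K4me3 peak in these windows.

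H3K27me3 peaks stood at far fewer members in EPZ6438 than in DMSO, as they did over the genome. Within 2.5 kb of either gene end, 3 members had an H3K27me3 peak in the EPZ6438 list and 20 in the DMSO list, which is 5.88% and 39.2% of members against 6.82% and 31.1% of protein_coding genes. The whole lists held 20764 peaks in EPZ6438 and 143399 in DMSO. Adamtsl2, Mmp24 and Mmp7 had a peak in both lists (6.41% of protein_coding genes), 17 members had one in DMSO but not in EPZ6438 (24.6% of protein_coding genes), 0 had one in EPZ6438 alone (0.404%), and 31 had none (68.5%). The 17 were Adamts7, Adamts8, Adamts13, Adamts14, Adamts15, Adamts16, Adamts18, Mmp3, Mmp8, Mmp9, Mmp13, Mmp15, Mmp17, Mmp19, Mmp25, Mmp27 and Mmp28. No Timp gene had an H3K27me3 peak in either list.

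The widest H3K27me3 cover lay at genes with few or no reads. Adamtsl2 had 460 bases under peaks at its ends in EPZ6438 and 3813 in DMSO. Mmp24 had 448 bases in EPZ6438 and 1847 in DMSO, from a peak that was 818 bp wide in EPZ6438 and 4638 bp wide in DMSO. Adamts13 had 0 bases in EPZ6438 and 1935 in DMSO, and Mmp25 had 0 and 1760 bases in EPZ6438 and DMSO.

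Some long Adamts genes carried H3K27me3 inside the gene in DMSO, and others did not. Over whole genes plus 2.5 kb to each side, 10 members had an H3K27me3 peak in EPZ6438 and 29 in DMSO, which is 19.6% and 56.9% of members against 13.7% and 41.4% of protein_coding genes. The genome as a whole held 7.63 peaks per megabase in EPZ6438 and 52.7 in DMSO. Adamts17, which spans 313 kb, held 3 peaks in EPZ6438 and 47 in DMSO, or 9.44 and 147.8 peaks per megabase. Adamts18, which spans 151 kb, held 0 peaks in EPZ6438 and 15 in DMSO, or 0 and 95.9 per megabase. Adamts14 held 0 and 9 such peaks in EPZ6438 and DMSO, Adamts20 held 1 and 12 (4.99 and 59.9 per megabase), and Adamts9 held 2 and 8 (11.4 and 45.5 per megabase). Adamts12, Adamts3 and Adamts6, which span 282, 209 and 207 kb, held 0 in both arms, and Adamts2, which spans 205 kb, held 0 in EPZ6438 and 1 in DMSO. Adamts19 (217 kb) held 2 and 4 in EPZ6438 and DMSO, and Adamts16 (114 kb) held 0 and 5. Some shorter members were denser than Adamts17. Adamts13 (36.2 kb) held 24.3 and 339.7 peaks per megabase in EPZ6438 and DMSO, and Mmp9 (15.1 kb) held 49.8 and 249.1. In RNA, Adamts17, Adamts18 and Adamts14 were higher in EPZ6438 with arms apart, and Adamts18 alone of these passed the test. Of all genes tested, 12% were higher with arms apart. Adamts18 passed the filter through its EPZ6438 libraries alone, so it could enter only as higher. Adamts17 reached 10 reads in 3 EPZ6438 libraries and 1 DMSO library, so its direction is limited in much the same way. Adamts9 overlapped between arms (log2 change 0.06, adjusted p = 0.848), and Adamts20 had 0 reads in EPZ6438 and 1 in DMSO.

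**Figure D4:**
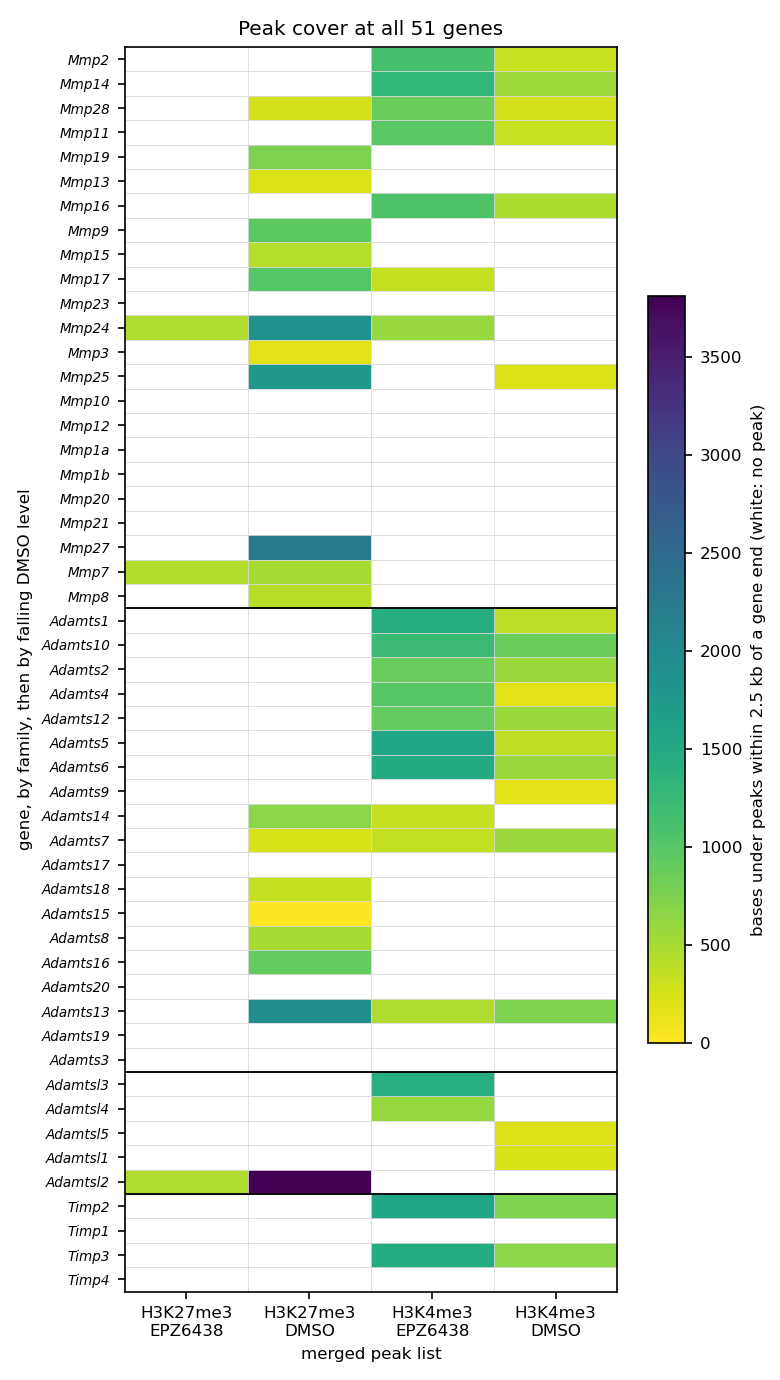
Bases under peaks within 2.5 kb of either gene end at all 51 genes, in the 4 merged lists, with EPZ6438 left of DMSO for each mark and white for no peak. H3K27me3 cover is present at 3 genes in EPZ6438 and 20 in DMSO, and H3K4me3 cover is larger in EPZ6438 at 14 of the 16 genes that have it in both lists.

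H3K4me3 marked a similar number of members in each arm within 2.5 kb of a gene end. Fewer were marked in DMSO when narrow peaks were left out or the windows were shorter, as over all protein_coding genes. In the EPZ6438 list 21 members had a peak (41.2% against 43.5% of protein_coding genes), and in the DMSO list 20 had one (39.2% against 39.5%). With peaks of at least 400 bp the counts were 15 in EPZ6438 and 6 in DMSO (29.4% and 11.8% against 32.1% and 12.3% of protein_coding genes). With 1 kb windows they were 20 and 14 (39.2% and 27.5% against 41.2% and 32.5%). Within 2.5 kb, H3K4me3 was found in both lists at 16 members (33% of protein_coding genes), in EPZ6438 alone at 5 (10.5%), in DMSO alone at 4 (6.49%) and in neither at 26 (50%). Those in EPZ6438 alone were Adamts14, Adamtsl3, Adamtsl4, Mmp17 and Mmp24, and those in DMSO alone were Adamts9, Adamtsl1, Adamtsl5 and Mmp25. Of the 16 with peaks in both lists, 14 had more bases under peaks in EPZ6438, with medians of 1081 bases in EPZ6438 and 554 in DMSO. Such a gain was seen in 87.8% of protein_coding genes with peaks in both lists, and peaks were wider throughout the EPZ6438 list, with a median width of 401 bp in EPZ6438 and 212 bp in DMSO.

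H3K4me3 near the start site and RNA did not always go the same way. Adamtsl3, which was lower in RNA, had a peak of 1103 bp over its start in EPZ6438 and none within 2.5 kb of its ends in DMSO. Adamts14, which was higher in RNA without passing, had a peak of 342 bp over its start in EPZ6438 and none in DMSO. Its H3K27me3 peaks of 254 and 404 bp in DMSO lay at the 3′ end. Adamts18 had no H3K4me3 peak at its ends in either list, and its H3K27me3 peak nearest to the start in DMSO, centred 410 bases into the gene, was 168 bp wide, the narrowest width in that list. Adamts1, Timp2 and Timp3, which fell in RNA, had H3K4me3 in both lists with more bases in EPZ6438, at 1434 against 384 bases in DMSO for Adamts1, 1557 against 744 for Timp2 and 1460 against 659 for Timp3. No H3K4me3 peak of Adamts1, Timp2 or Timp3 covered the start site itself. More bases in EPZ6438 was also found at 87.8% of protein_coding genes with peaks in both lists, so it is not particular to these genes. Some of these windows hold another gene's end, and in 6 of 40 H3K4me3 peaks in EPZ6438 and 3 of 29 in DMSO that end was nearer than the member's.

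**Figure D5:**
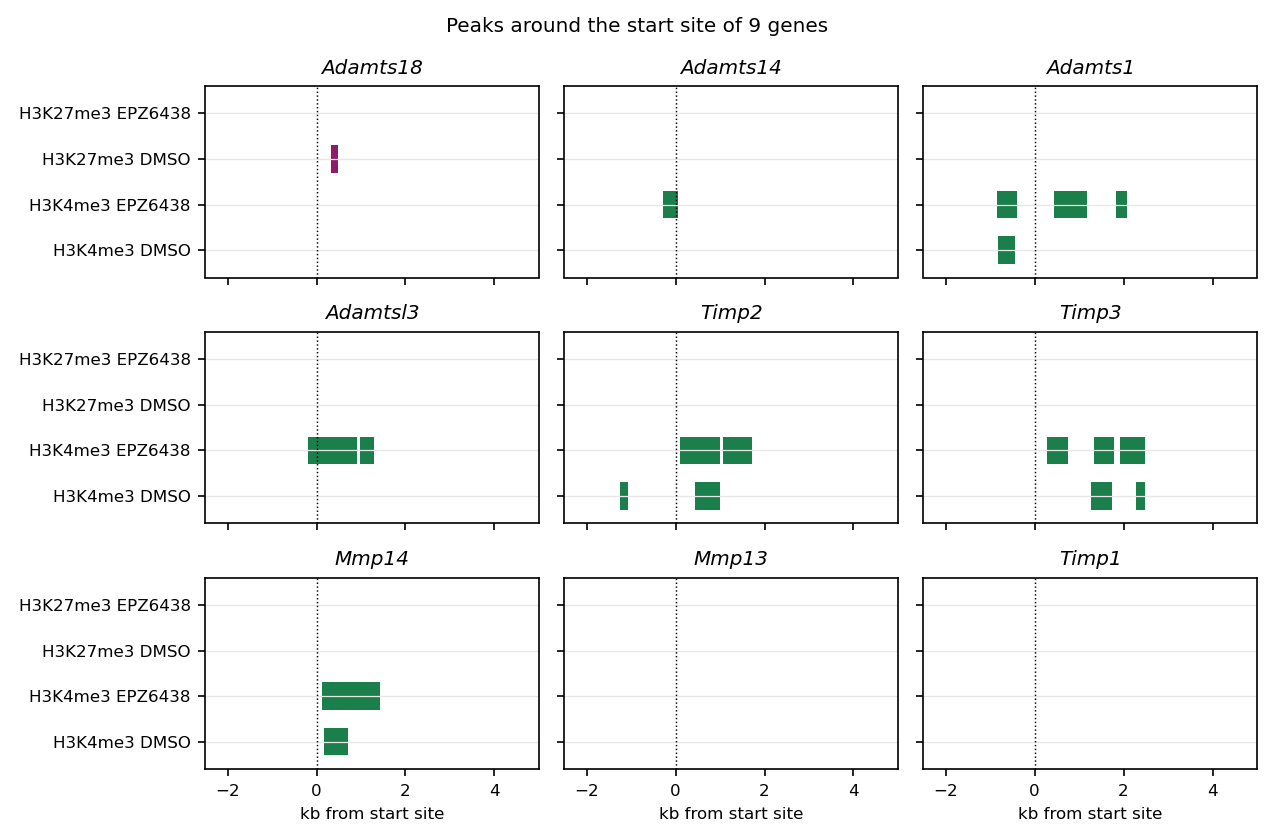
Peaks around the RefSeq start site of 9 genes, in kb from the start with the gene to the right, 1 row per merged list and EPZ6438 above DMSO for each mark. Adamts14 and Adamtsl3 have H3K4me3 over the start in EPZ6438 alone, and Mmp13 and Timp1 have no peak in the span shown.

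Timp1 was abundant with no peak of either mark in either list. It was 1 of 4 members above 100 RPKM in DMSO, and 38 of the 438 protein_coding genes above that level (8.68%) had no H3K4me3 peak in either list. Its promoter held 6 CpG dinucleotides, that of Timp4, which also had no peak, held 2, and those of Timp2 and Timp3, which had H3K4me3 in both lists, held 21 and 18.

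Members were also grouped by the marks they carried in the DMSO lists. Of 16 members with H3K4me3 alone, 15 were above 1 RPKM in DMSO (93.8% against 92.3% of protein_coding genes in that state), and of 16 with H3K27me3 alone, 3 were (18.8% against 13.2%), which were Adamts14, Mmp13 and Mmp19. Of 15 with neither mark, 3 were (20% against 34.2%), which were Timp1, Adamtsl3 and Adamtsl4, and of 4 with both marks, 2 were (50% against 46.4%). Both marks stood at 1 member in EPZ6438, Mmp24 (0.631% of protein_coding genes), and at 4 in DMSO, Adamts7, Adamts13, Mmp25 and Mmp28 (10.4%). Either gene end counted, so the marks need not share an end. At Mmp28 in DMSO, H3K27me3 was centred 24806 bases from the start, nearer to another gene, and H3K4me3 1586 bases from it. At Mmp25 in DMSO, the H3K27me3 peaks near a gene end were centred 15746 and 17891 bases from the start, and H3K4me3 1377 bases. With H3K4me3 alone, 16 members were tested and 4 passed, each of them lower in EPZ6438 (Adamts1, Adamts5, Timp2 and Timp3), with a median log2 change of -0.17 (-0.03 over protein_coding genes in that state). Of 6156 protein_coding genes tested in that state, 142 rose and 188 fell. With H3K27me3 alone, 8 members were tested, 1 rose (Adamts18) and 1 fell (Mmp19), where 128 rose and 26 fell of 1001 protein_coding genes. Adamts18 and Adamtsl2 are among these 8 and passed the filter through EPZ6438 alone, so each could enter only as higher in EPZ6438, and no median is given.

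Partners and substrates of the families, taken from lists that were fixed by function, moved in both directions. Over all 14213 genes tested, 3.8% rose and 3.24% fell, with a median log2 change of -0.029. The lists are short, and no list was tested as a set. Among 9 tested inhibitors and clearance factors of metalloproteinases, 3 rose and 1 fell, with a median log2 change of 0.20. Reck, a membrane-anchored inhibitor of Mmp2, Mmp9 and Mmp14, had 27.9, 26.2 and 26.5 RPKM in EPZ6438, against 14.5, 14.8 and 12.6 RPKM in DMSO, and rose (log2 change 0.94, adjusted p = 0.00178) in the same libraries in which Timp2 and Timp3 fell. The matricellular protein Sparc rose (log2 change 0.40, adjusted p = 0.0412) and the protease nexin Serpine2 fell (-0.43, adjusted p = 0.0471). Sparc no longer passed when any 1 library but DMSO replicate 1 was left out, and Serpine2 when any 1 but DMSO replicate 3 was (adjusted p up to 0.176). Of 6 tested activators, 1 rose, the proprotein convertase Pcsk6 (log2 change 1.59, adjusted p = 0.000704).

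Of 8 tested Adam membrane sheddases, 2 rose and 1 fell, with a median of -0.12 (3.8% rose and 3.24% fell over all genes tested). Adam12 (log2 change 1.42, adjusted p = 0.00202) and Adam19 (0.93, adjusted p = 0.0101) rose, and Adam23, which is inactive as a protease, fell (-0.58, adjusted p = 0.0417). Adam19 no longer passed without EPZ6438 replicate 1 or 3 (adjusted p up to 0.0652), nor Adam23 without any 1 library but DMSO replicate 3 (up to 0.171). Of 4 tested procollagen C-proteinases and enhancers, Tll1, a relative of Bmp1, rose (0.69, adjusted p = 0.0192) and 3 did not pass. Of 11 other matrix-degrading proteases, Prss35 (2.36, adjusted p = 0.000814) and Htra3 (0.77, adjusted p = 0.0401) rose, and the serine protease Prss23 (-1.02, adjusted p = 0.00119) and cathepsin B, Ctsb (-0.61, adjusted p = 0.00622), fell. The call of Tll1 held only without DMSO replicate 1 or 3 (adjusted p otherwise up to 0.0810), that of Htra3 only without DMSO replicate 3 (up to 0.168), and that of Ctsb was lost without EPZ6438 replicate 3 (0.0508).

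Of 14 tested substrates of aggrecanases and of fibrillin-binding members, 3 rose and 3 fell (3.8% and 3.24% over all genes tested). The proteoglycan Cspg4 (log2 change 1.73, adjusted p = 0.00567) and matrilin-3, Matn3 (1.65, adjusted p = 0.0193), rose, and fibrillin-1, Fbn1 (-0.75, adjusted p = 0.00178), and matrilin-2, Matn2 (-0.48, adjusted p = 0.00564), fell. Matn3 no longer passed without any 1 EPZ6438 library (adjusted p up to 0.0825), nor Matn2 without DMSO replicate 2 or EPZ6438 replicate 3 (up to 0.0548). Of 17 tested AP-1 and Runx regulators of collagenase genes, 4 rose and 13 did not pass, with a median of 0.27. The 4 were Sp7 (0.91, adjusted p = 0.000704), the parathyroid hormone receptor Pth1r (1.48, adjusted p = 0.00461), Runx2 and Runx3 (0.56, adjusted p = 0.0153), so no tested Fos or Jun gene passed. Runx2 no longer passed without DMSO replicate 2 or EPZ6438 replicate 3 (adjusted p up to 0.0620), and Runx3 passed only without DMSO replicate 1 or 3 among these fits (otherwise up to 0.104).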

How the data were processed

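The members and gene lists were chosen with earlier results of these data known. Per the file headers, the authors deposited RPKM per gene and library, with gene positions but no strand. The other values that the authors deposited are starts and ends of peaks, 1 list for each mark in each arm, from merged samples and without heights or scores. Per the submitters' processing notes, which assign no roles, the build was mm10 and the tools were STAR 2.6.1c, Subread, HOMER, MACS2, DiffBind, Picard, FastQC and bcl2fastq. Peak thresholds, the annotation release and the use of strand in counting are not known here.

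RPKM times length (plus 1 base) gave whole reads for 100% of values (tolerance 0.001), so read totals were recovered. Reads carry no molecular identifiers, and counting intervals and floors of 3 reads therefore cover counting error only. Because the values are RPKM, a count test was not the main test. The filter asked for 10 or more recovered reads in 3 or more libraries. The test was limma 3.58.1 (trend, empirical Bayes, two-sided) in R 4.3.3 on log2(RPKM + 0.1), adjusted over all 14213 genes by the Benjamini-Hochberg method. This scale makes fold changes of low genes smaller than they are. The fit was tested on simulated data.

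Values per library are given for members that passed, for Mmp13, Mmp2 and Timp1, for the 3 most abundant genes of each family, and for some others singled out after their values were seen. List genes were named by adjusted p, at most 4 per list. Results of single genes that would be named by these rules are in part not reported here. Peaks were assigned to genes where at least 1 bp lay within 2.5 kb of either gene end, in pandas 2.3.3 (Python 3.11.15, numpy 2.4.6). Start sites and promoters came from RefSeq GRCm38.p6. Exact intervals used scipy 1.17.1, and figures matplotlib 3.10.9. Alternatives were other filters, pseudocounts and scaling, voom, a 1.5-fold test, a replicate block, leaving out each library, and other windows and peak widths.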

Additional observations from a re-analysis of the deposited data

How the results depend on the processing

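The direction of all 31 tested members and the side of the threshold held under pseudocounts of 0.5 and 1 RPKM. Over all genes, the 1001 calls became 628 with no filter, 118 in limma's test against a 1.5-fold change and 309 to 1003 without single libraries (335 when DMSO replicate 2 was left out, and 309 to 381 when an EPZ6438 library was). The 7 calls among members became 0 in the 1.5-fold test, where 4 members had an unadjusted p under 0.05, against 18 in the main test. They became 3 to 9 without single libraries, with 4 when DMSO replicate 2 and 3 or 4 when an EPZ6438 library was left out, and Adamts18 did not pass the filter without an EPZ6438 library. Voom on recovered reads made 9 calls, and the cause of these differences was not tested. Leave-one-out fits with 2 libraries in an arm use the spread pooled over both arms. A replicate block gave 9 calls among members (3 up and 6 down) and 1051 over all genes, and Adamts14 and Mmp15 passed with it. The deposited column headers give RNA samples with the same number a shared prefix, whose meaning is not stated. Deviations of samples with the same number correlated at 0.410, 0.0781 and 0.0561, and EPZ6438 replicate 2 correlated best with DMSO replicate 3. With 3 libraries in each arm these values cannot settle whether the numbers mark pairs, and the main fit did not use them as pairs. Adamts4, with a log2 change near 0, reversed with median-of-ratios scaling (0.032) and ranged from -0.10 to 0.082 without single libraries. Adamts9 ranged from -0.022 to 0.11 and reversed without DMSO replicate 1. Median-of-ratios scaling moved EPZ6438 against DMSO by 0.033 on the log2 scale. Members with an H3K27me3 peak in EPZ6438 numbered 1, 6 and 10 with 1 kb windows, 5 kb windows and whole genes, and with 1 kb windows those in DMSO numbered 12. With peaks of at least 400 bp, 15 members had H3K4me3 in EPZ6438 and 6 in DMSO (29.4% and 11.8% against 32.1% and 12.3% of protein_coding genes). Depth limits members with few reads, and merged lists give no error for peaks.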
